A study of Mus musculus with 2 samples.

Results

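The miR-181 family is a set of 6 mouse microRNA genes in 3 clusters of 2: Mir181a-1 with Mir181b-1, Mir181a-2 with Mir181b-2, and Mir181c with Mir181d. The members were taken by gene name from the GENCODE M21 annotation, and all 6 were found among the 2202 miRNA genes counted in the series. Small RNA of up to 30 nt was sequenced from the hippocampus of B6CASTF1/J females, an F1 cross of the B6 and CAST strains, at an age of 18 to 20 months. There were 2 libraries, labelled biological replicates 1 and 2, in 1 group with no treatment, age or genotype contrast. The tissue is labelled as a layer of hippocampus, without naming the layer. The labels number the animals differently and yet point to a single donor record, so the samples may not be independent animals.

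MicroRNAs are cut from hairpin transcripts, and each hairpin can yield a mature strand from its 5′ arm and another from its 3′ arm. A mature strand guides Argonaute to messenger RNAs that pair with its seed, which is bases 2 to 8. In miR-181 the 5′ arm (5p) is the strand usually treated as the active one. The family is best known from lymphocytes, where it tunes the sensitivity of antigen receptor signalling, and it is also studied in neurons and astrocytes.

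The mature sequences are shown because they set which genes share a seed and which reads can be placed at a single gene. All 6 genes and their 12 mature arms matched the RefSeq table (GRCm38.p6), with 10 distinct sequences among the 12 arms. Seeds are in capitals, and each line runs 5′ to 3′. The 4 distinct 5p strands carry the same seed, ACAUUCA, and no other gene with a mature sequence in the table carries it.
miR-181a-5p (from Mir181a-1 and Mir181a-2): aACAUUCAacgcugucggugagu
miR-181b-5p (from Mir181b-1 and Mir181b-2): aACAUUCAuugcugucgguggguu
miR-181c-5p (from Mir181c): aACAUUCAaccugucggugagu
miR-181d-5p (from Mir181d): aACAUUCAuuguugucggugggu

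The differences among these strands lie outside the seed. Positions are counted from 1 at the 5′ end of the first strand named. From miR-181a-5p to miR-181b-5p the substitutions are A9U, C10U and A21G, and miR-181b-5p has 1 more base at its 3′ end. From miR-181b-5p to miR-181d-5p there is a single substitution, C12U, and miR-181b-5p has 1 more base at its 3′ end. The miR-181c-5p strand lacks 1 base of miR-181a-5p and is otherwise identical over its 22 bases. Thus a read of the whole miR-181a-5p or miR-181b-5p strand fits 2 genes on different chromosomes, whereas miR-181c-5p and miR-181d-5p are each listed for 1 gene.

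The 3′ arms (3p) are shown because each belongs to 1 gene of the table, also for the genes whose 5p strand is shared.
miR-181a-1-3p (from Mir181a-1): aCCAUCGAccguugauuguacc
miR-181a-2-3p (from Mir181a-2): aCCACCGAccguugacuguacc
miR-181c-3p (from Mir181c): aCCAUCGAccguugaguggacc
miR-181b-1-3p (from Mir181b-1): cUCACUGAacaaugaaugcaa
miR-181b-2-3p (from Mir181b-2): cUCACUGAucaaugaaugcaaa
miR-181d-3p (from Mir181d): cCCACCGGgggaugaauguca

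Among the 3p strands, miR-181a-1-3p and miR-181c-3p share a seed, as do miR-181b-1-3p and miR-181b-2-3p. From miR-181a-1-3p to miR-181a-2-3p the substitutions are U5C, which falls in the seed, and U16C. From miR-181b-1-3p to miR-181b-2-3p the only substitution is A9U, with 1 more base at the 3′ end. The seeds of miR-181a-2-3p and miR-181d-3p were found in no other gene of the table. The deposited counts are per hairpin gene, so the reads of 5p and 3p arms within a gene cannot be told apart here.

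Sense-strand counts in miRNA genes summed to 2255838 in replicate 1 and to 4521208 in replicate 2. Levels are given as CPM (counts scaled to a sum of 1000000 per library), with exact 95% Poisson intervals for a single library. For a count of 0, a limit of 3 counts was used in place of that interval, or 1.33 and 0.664 CPM in replicates 1 and 2. Intervals and limits cover counting error only, and they may understate it, since PCR copies are not independent molecules. Multimapping reads, those that fit more than 1 place, were set apart from the gene counts. They numbered 2705225 in replicate 1 and 5818583 in replicate 2, and how many of them came from miR-181 strands is not recorded in the files. Of 8 neuronal marker genes, 5 reached 1 CPM in both libraries, and the list summed to 65206 and 50582 CPM. The exceptions were the 3 copies of Mir124a, which share their mature strand and had means of 0.664 to 1.88 CPM. Of the other 5, Mir132 and Mir138-1 were lower in replicate 2, while Mir128-1, Mir128-2 and Mir137 were higher. The lower sum in replicate 2 lay mostly in Mir132, at 38949 and 18329 CPM. Adapter ligation can favour some miRNAs, so ranks and folds between genes are those of reads.

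The family as a whole took nearly the same share of the counts in both libraries, while its genes spanned a wide range. It held 10577 counts in replicate 1, or 0.469% of all sense counts (exact binomial interval 0.460 to 0.478), and 20817 counts in replicate 2, or 0.460% (0.454 to 0.467). These intervals overlap. The mean levels ran from 7.41 CPM for Mir181b-1 to 1888 CPM for Mir181c, a 255-fold range by mean CPM. Between these genes the fold was 493 (260 to 1079, exact binomial interval) in replicate 1 and 167 (126 to 226) in replicate 2. In order of mean level, the genes ranked 68, 79, 113, 121, 281 and 325 among all 2202, of which 734 had any sense count. All 6 reached 1 CPM in both libraries, as did 446 of the 2202 genes. The share, the range and the ranks are those of reads placed at 1 gene. Any multimapping reads of miR-181a-5p and miR-181b-5p are left out of them.

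**Figure D1:**
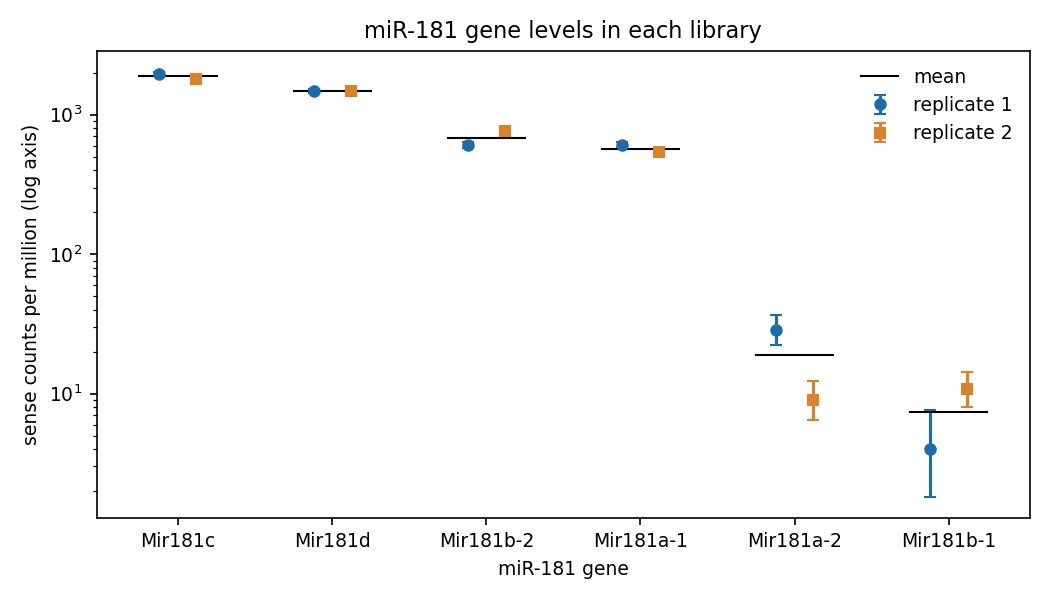
Level of each miR-181 gene (vertical log axis, sense CPM) in replicate 1 (circles) and replicate 2 (squares), with exact 95% Poisson intervals and the mean as a line. Mir181c, Mir181d, Mir181b-2 and Mir181a-1 lie between 538 and 1967 CPM, and Mir181a-2 and Mir181b-1 between 3.99 and 28.8 CPM.

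Mir181c and Mir181d, the genes with 5p strands of their own, had the most gene counts of the family. They lie on the minus strand of chromosome 8 (mm10) at 84178873 to 84178961 (ENSMUSG00000065483.2) and 84178716 to 84178787 (ENSMUSG00000076338.1), 85 bases apart. Both are in an intron of Nanos3, a gene of germ cells, on its strand. Mir181c had 4438 counts in replicate 1, or 1967 CPM (1909.9 to 2026). In replicate 2 it had 8177 counts, or 1809 CPM (1769.6 to 1848). Mir181d had 3333 counts, or 1477 CPM (1428 to 1529), and 6662 counts, or 1474 CPM (1438 to 1509). Mir181c was above Mir181d in each library without overlap of the intervals, and Mir181d in turn was above every other member in both. Whole 5p reads of the Mir181a and Mir181b genes fit more than 1 gene, and multimapping reads were set apart. The levels thus compare unlike sets of reads, and the order of the mature strands in the tissue was not tested.

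The fold between these genes was similar in both libraries, although its intervals narrowly did not overlap. Mir181c stood 1.33-fold (1.27 to 1.39, exact binomial interval) above Mir181d in replicate 1 and 1.23-fold (1.19 to 1.27) in replicate 2. Between the libraries the fold changed by 0.12 log2 units, against a median of 0.69 over the 97 other neighbouring pairs in which both genes were tested. Together the pair held 73.5% of the family's counts in replicate 1 (72.6 to 74.3) and 71.3% in replicate 2 (70.7 to 71.9). These are shares of reads placed at 1 gene, and they leave out any multimapping reads of miR-181a-5p and miR-181b-5p. The intervals do not cover that loss.

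On chromosome 1, Mir181a-1 was well counted and its neighbour Mir181b-1 had few counts. The hairpins lie on the plus strand at 137966455 to 137966541 (ENSMUSG00000065565.1) and 137966639 to 137966718 (ENSMUSG00000065458.1), 97 bases apart. Both are in an intron of the noncoding gene Gm4258 on the same strand. The whole Mir181b-1 hairpin and the last 11 bases of Mir181a-1 also overlap an exon of the long noncoding RNA A430106G13Rik, and the lincRNA Gm26936 runs across both on the opposite strand. Mir181a-1 had 1365 counts in replicate 1, or 605 CPM (573 to 638). In replicate 2 it had 2433 counts, or 538 CPM (517 to 559.9). Mir181b-1 had 9 counts, or 3.99 CPM (1.82 to 7.57), and 49 counts, or 10.8 CPM (8.02 to 14.3). Mir181a-1, the first hairpin in the direction of transcription, was thus the higher one in gene counts, by 152-fold (79.7 to 332) in replicate 1 and 49.7-fold (37.4 to 67.3) in replicate 2. These folds leave out any multimapping reads of miR-181a-5p and miR-181b-5p, and the order of the hairpins in mature output was not tested.

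On chromosome 2 the order of the gene counts was the opposite: the b gene was high and the a gene low. Mir181a-2 (ENSMUSG00000065423.1, 38852735 to 38852810) and Mir181b-2 (ENSMUSG00000065578.1, 38853830 to 38853918) lie on the plus strand, 1019 bases apart. They sit on the opposite strand to Nr6a1, an orphan nuclear receptor gene, within an intron of it. Mir181b-2 also lies opposite an exon of Gm44144, a provisional transcript. Mir181b-2 had 1367 counts in replicate 1, or 606 CPM (574 to 639). In replicate 2 it had 3455 counts, or 764 CPM (739 to 790.1). Mir181a-2 had 65 counts, or 28.8 CPM (22.2 to 36.7), and 41 counts, or 9.07 CPM (6.51 to 12.3). Mir181b-2, the second hairpin in the direction of transcription, was the higher one, by 21.03-fold (16.4 to 27.4) in replicate 1 and 84.3-fold (62.0 to 118) in replicate 2.

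**Figure D2:**
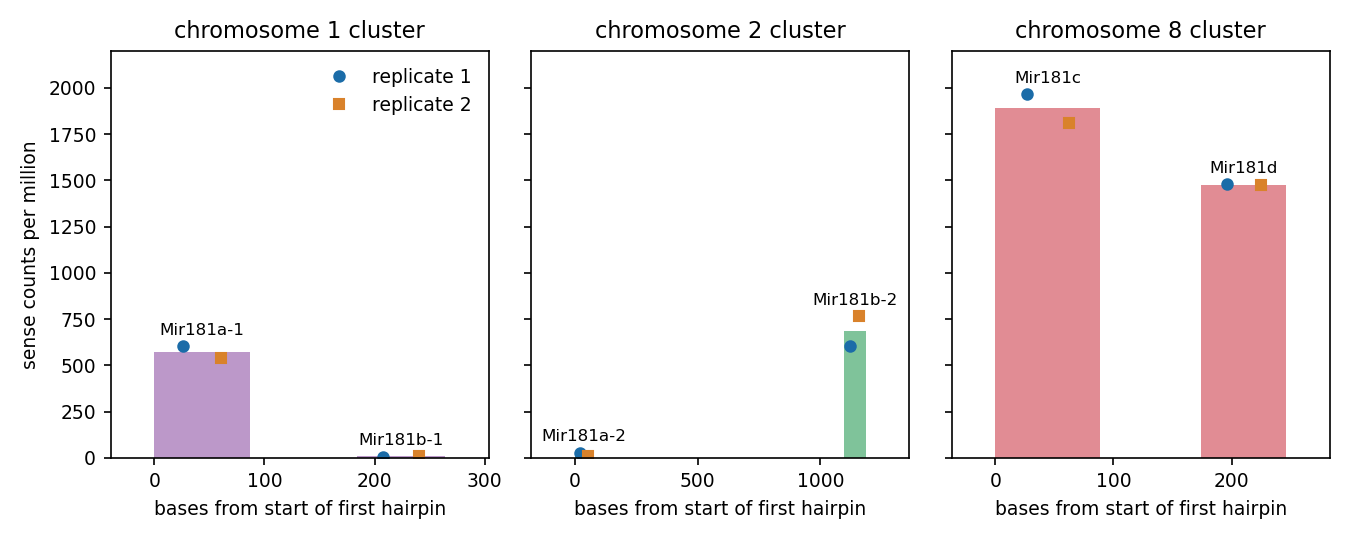
Level (vertical axis, sense CPM) of the hairpins of each cluster, placed by distance in bases from the start of the first hairpin in the direction of transcription; bars are means as wide as the hairpin, circles replicate 1 and squares replicate 2. The first hairpin is the higher on chromosomes 1 and 8 and the second on chromosome 2, and Mir181c and Mir181d differ least, with means of 1888 and 1475 CPM.

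At all 3 clusters the intervals of the within-cluster fold did not overlap between the libraries, narrowly so for Mir181c over Mir181d, while the directions were the same in both. Between the libraries the fold of Mir181a-1 over Mir181b-1 changed by 1.55 log2 units and that of Mir181b-2 over Mir181a-2 by 2.00, both above the median of 0.69 for other neighbouring pairs, so the sizes of these folds are uncertain. The chromosome 1 cluster held 13.0% of the family's counts in replicate 1 (12.4 to 13.6) and 11.9% in replicate 2 (11.5 to 12.4). The chromosome 2 cluster held 13.5% (12.9 to 14.2) and 16.8% (16.3 to 17.3). The intervals of these clusters overlapped in replicate 1 and were apart in replicate 2. Their shares, too, leave out any multimapping reads of miR-181a-5p and miR-181b-5p.

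The order of neighbouring members was clear at the top and not further down. Mir181b-2 and Mir181a-1 had almost the same count in replicate 1, 1367 and 1365, a ratio of 1.00 (0.928 to 1.08), and a ratio of 1.42 (1.35 to 1.50) in replicate 2. Mir181a-2 was 7.22-fold (3.58 to 16.5) above Mir181b-1 in replicate 1, and in replicate 2 it was at 0.837 of it (0.539 to 1.29). The order of those last 2 genes was therefore not the same in both libraries. Mir181a-1 and Mir181b-2 were above both of them by 21-fold or more in each library.

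The genes that carry the same 5p strand differed widely in counts. Mir181a-1 stood 21-fold (16.4 to 27.4) above Mir181a-2 in replicate 1 and 59.3-fold (43.6 to 82.9) in replicate 2. Mir181b-2 stood 152-fold (79.8 to 333) above Mir181b-1 in replicate 1 and 70.5-fold (53.2 to 95.5) in replicate 2. By mean CPM the folds were 30.2 for the Mir181a genes and 92.4 for the Mir181b genes. Between the libraries these folds changed by 1.49 and 1.04 log2 units, against a median of 0.48 over the 18 other copy pairs in which both genes were tested. Reads of the whole shared 5p strand fit both genes of a pair, and multimapping reads were set apart from these counts. The folds are therefore not folds in the output of the shared 5p strand. How many of the counts came from the 3p strands that set the genes apart, and how many from other reads, cannot be read from the files.

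Among all genes named as exactly 2 copies, these folds were toward the upper end. Of 43 such pairs, 23 had 10 or more counts in sum, and the 21 pairs outside the family had a median fold of 2.91 (quartiles 1.69 and 10.6). The Mir181b pair ranked 2 and the Mir181a pair 3 of the 23, with a partner at 0 counted as 3 counts in each library, which gives a lower bound. Mir219a-2 over Mir219a-1, genes of an oligodendrocyte miRNA, ranked above them at 491-fold. Next below the Mir181a pair came Mir3074-1 over Mir3074-2, which rests on 1 count of Mir3074-2. Mir194-1 had no count, and Mir194-2 stood at least 24.8-fold above it, a bound that leaves its place relative to the miR-181 pairs unknown. In 18 pairs both genes share 1 arm and have 1 of their own, as the Mir181a and Mir181b genes do, and the 16 such pairs outside the family had a median fold of 2.46 (range 1.13 to 24.8, the upper end a lower bound).

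Folds within clusters were less unusual. Of 354 pairs of neighbouring miRNA genes on the same strand within 10 kb, 154 had 10 or more counts in sum. The 151 outside the family had a median fold of 15.02 (quartiles 4.22 and 58.9), with 36 of them lower bounds, so the ranks are approximate. Mir181a-1 over Mir181b-1 ranked 31 and Mir181b-2 over Mir181a-2 ranked 54 of the 154. The neighbours in that order were Mirlet7b over Mirlet7c-2 at 81.7-fold and Mir26a-2 over Mir546 at no less than 73.1-fold for the first, and Mir541 over Mir377 at 39.3-fold and Mir143 over Mir145a at 31.8-fold for the second. At 1.28-fold by mean CPM, Mir181c over Mir181d ranked 153, between Mirlet7f-1 over Mirlet7a-1 (1.34-fold) and Mir194-2 over Mir192 (1.07-fold). Of the 151 other pairs, lower bounds included, 15 were under 2-fold. Multimapping reads were left out of all these folds, and the pairs were not split by whether their arms are shared with other genes. The ranks thus compare unlike sets of reads, and differences in output between clustered hairpins were not tested.

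**Figure D3:**
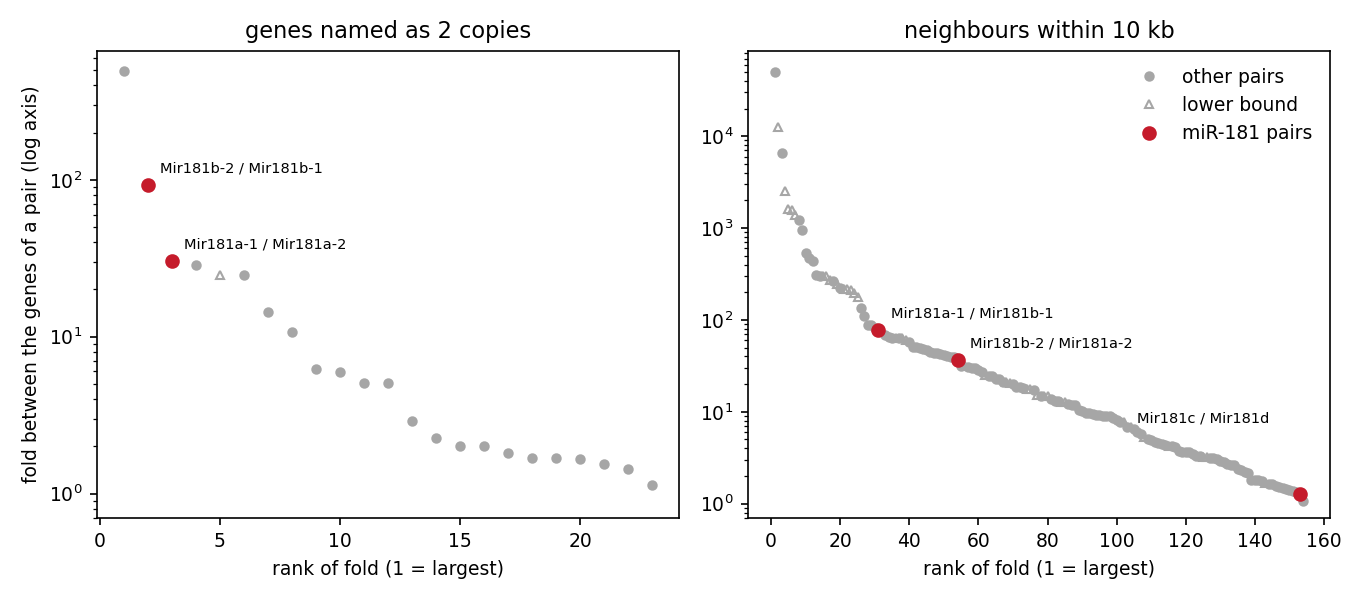
Fold between the mean levels of the genes of a pair (vertical log axis), in rank order, for genes named as 2 copies (left) and for same-strand neighbours within 10 kb (right); open triangles are lower bounds for a partner with no count. The Mir181a and Mir181b copy pairs lie at 30.2-fold and 92.4-fold, above the median of 2.91 for other copy pairs, and Mir181c with Mir181d lies near the bottom of the right panel at 1.28-fold.

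The sharing of arms was also described across the annotation, with no test of a difference between classes. Of the 2202 genes, 1018 matched a mature sequence by symbol. Of the 57 genes with 1 shared and 1 own arm, among them the 4 Mir181a and Mir181b genes, 68.4% reached 1 CPM in both libraries, against 38.3% of the 924 genes with no shared arm. Where all listed arms were shared, 16.2% of 37 genes did. Among genes at 1 CPM or above on average, the median level was 98.3 CPM with 1 shared arm (quartiles 20.9 and 409) and 39.7 CPM with none (3.88 and 586), and Mir181a-2 and Mir181b-1 lay below the first of these, Mir181a-1 and Mir181b-2 above it. These classes were not matched for any other property of the genes.

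Each member had a gene outside the family with a like pair of levels, by Euclidean distance of log2(CPM + 1) over the 2 libraries. Mir125b-1 was nearest to Mir181b-2 (distance 0.017, with 606 and 755 CPM). Mir129-2 was nearest to Mir181d (0.12, with 1411 and 1377 CPM), Mir1839 to Mir181c (0.13, with 1816 and 1882 CPM) and Mir673 to Mir181a-1 (0.15, with 664 and 517 CPM). For the low genes the nearest were Mir5132 to Mir181b-1 (0.27, with 3.99 and 8.85 CPM) and Mir135a-2 to Mir181a-2 (0.48, with 31.9 and 12.8 CPM).

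**Figure D4:**
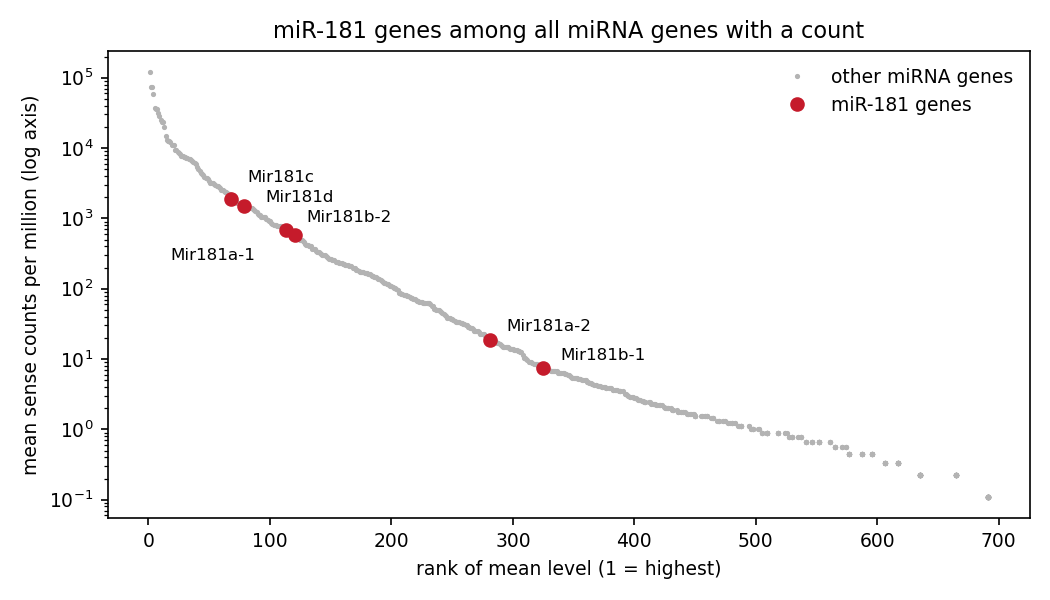
Mean level (vertical log axis, sense CPM) against rank for all miRNA genes with a count (small points) and the miR-181 genes (large labelled points). Mir181c, at rank 68, and Mir181d, at rank 79, stand well above Mir181a-2 at rank 281 and Mir181b-1 at rank 325.

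Between the libraries, the low members differed and the high ones stayed within 2-fold. An exact conditional binomial test compared the counts of each of the 495 genes whose mean reached 1 CPM, and a gene was called at a Benjamini-Hochberg adjusted p under 0.05 and a difference of 2-fold or more. Each tissue sample has 1 library, so this is a comparison of libraries, with no replicate check. Of the 6 members, 2 were called, 1 lower and 1 higher in replicate 2, beside 17.6% of all tested genes (13.7% lower and 3.84% higher). Mir181a-2 was 3.18-fold lower in replicate 2 (2.12 to 4.82; adjusted p = 1.7e-08, exact binomial test). Mir181b-1 was 2.72-fold higher (1.32 to 6.29; adjusted p = 0.0071, exact binomial test), on 9 and 49 counts.

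The other 4 members were not called. Mir181b-2 had a log2 ratio (replicate 2 over replicate 1) of 0.33 (adjusted p = 7.3e-13, exact binomial test), which passed the p but not the fold. Mir181a-1 had a log2 ratio of -0.17, Mir181c of -0.12 and Mir181d of -0.004, and these signs were not stable, since all 3 ratios were above 0 with DESeq2 size factors. The median log2 ratio was -0.06 over the 6 members and -0.19 over all 495 genes, and the median absolute log2 ratio was 0.25 and 0.51. With edgeR's TMM factors every ratio rises by 0.12 and with DESeq2 size factors by 0.19, and over all genes the calls of 19 higher and 68 lower became 26 and 51, and 27 and 48. The 2 members called were the same under both scalings.

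**Figure D5:**
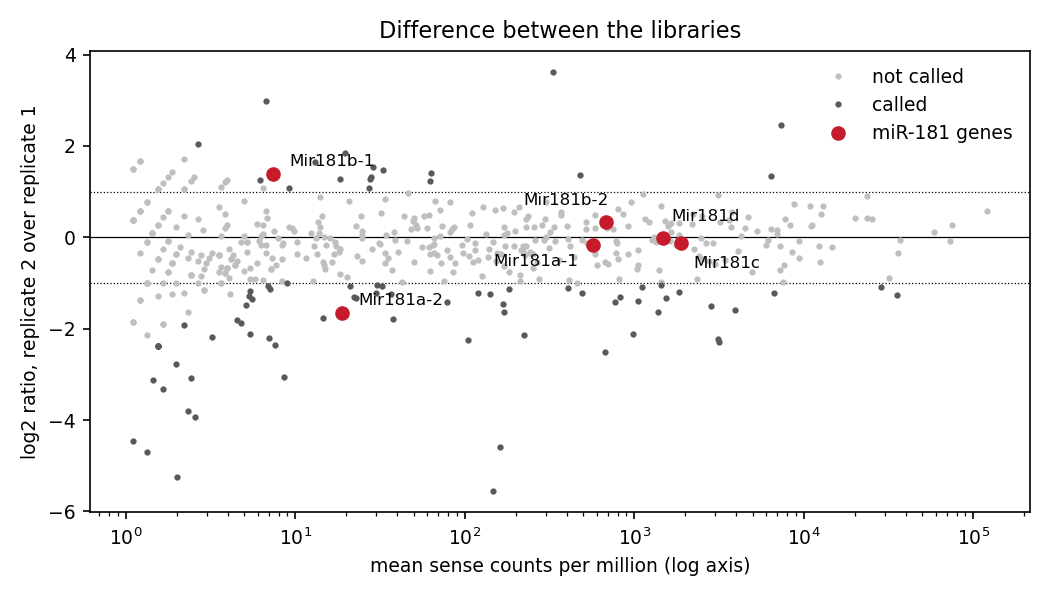
Log2 ratio of replicate 2 over replicate 1 (vertical axis) against mean level (horizontal log axis, sense CPM) for the 495 tested genes; dark points were called, dotted lines mark 2-fold, and large points are the miR-181 genes. Mir181a-2 and Mir181b-1 lie outside the dotted lines, and the other 4 members lie between -0.17 and 0.33.

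The calls rest on counting error alone. With the spread between libraries as the error in edgeR's exactTest (common biological coefficient of variation 39.9%), 0 of the 6 members were called, and 0 had an unadjusted p under 0.05. The lowest unadjusted p was 0.072, for Mir181a-2, and over all genes 3 were called and 26 had an unadjusted p under 0.05. That spread was estimated from the same 2 libraries that were then compared, so few calls were to be had by construction, and the counts do not show that the members were equal.

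The miRNAs that accompany miR-181 in its best known settings gave these values in the same libraries. Of 7 lymphoid and myeloid genes, 7 reached 1 CPM in both libraries, 0 were called higher and 2 lower in replicate 2, with a median log2 ratio of -0.13, beside 3.84% higher and 13.7% lower over all tested genes. Mir150, a lymphocyte miRNA, stood at 823 and 752 CPM, Mir142, found across blood cells, at 157 and 116 CPM, Mir155, induced in activated immune cells, at 24.4 and 43.8 CPM, and Mir223, a myeloid miRNA, at 12.9 and 15.3 CPM. Those called were Mir21a, at 5880 and 1945 CPM, and Mir146b, at 15.5 and 1.77 CPM. The 5 leukocyte and microglia markers summed to 1718 and 1726 CPM, and the miR-181 genes to 4689 and 4604 CPM. Which cells the miR-181 counts came from was not tested, and in tissue fewer cells of a type and less RNA per cell cannot be told apart.

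Of 12 synapse-linked genes, 8 reached 1 CPM in both libraries and 10 were tested, with 1 called higher, 1 lower and a median log2 ratio of -0.30, beside the same 3.84% and 13.7%. Mir132, an activity-responsive miRNA, was the one called lower, at 38949 and 18329 CPM, and Mir9-1 the one called higher, at 6.21 and 19.9 CPM. All listed arms of Mir9-1 are shared with other genes, and Mir138-1 and Mir138-2 share 1 arm. Any multimapping reads of shared arms are left out of these levels and of the call. Mir138-2, at 1884 and 1666 CPM, was the listed gene closest in level to Mir181c. Mir138-1, a regulator of dendritic spine size, stood at 3602 and 2386 CPM, and Mir134, which acts on dendritic translation, at 301 and 443 CPM. Several summed levels were lower in replicate 2. The lymphoid and myeloid list stood at 7614 and 3672 CPM, a difference that lay mostly in Mir21a. Mir146 (701 and 798 CPM), Mir155 and Mir223 of that list were higher in replicate 2. The synapse-linked list stood at 48308 and 25318 CPM, mostly through Mir132, while Mir134 and Mir9-1 were among those higher. The 4 choroid plexus and ciliated cell markers stood at 2730 and 1250 CPM. Of these 4, 2 were called lower, and the difference lay mostly in Mir34c at 1597 and 366 CPM, while Mir449a stood at 55.4 and 63.9 CPM. The 2 oligodendrocyte markers summed to 6822 and 5391 CPM, and the endothelial marker Mir126a stood at 21890 and 29026 CPM. The part of such differences in the ratios of Mir181a-2 and Mir181b-1 was not tested.

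None of the 6 members had an antisense count in either library, which allows up to 3 counts each, whereas 72 of the 2202 genes had at least 1. The unstranded counts of all 6 equalled their sense counts.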

How the data were processed

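Small RNA libraries of 2 hippocampal tissue samples were analysed, as 1 group. Raw counts per miRNA gene were deposited as 1 file per library, with unstranded, sense and antisense columns; the README texts beside them name assembly mm10 and annotation M21. Which aligner and counter made them is not given in the sources used here. The 4 rows of totals (unmapped, multimapping, unassigned, ambiguous) stayed out of library sizes and tests; unmapped reads were 29.0% and 11.2% of all reads in replicates 1 and 2, and multimapping reads 36.2% and 47.9%. As mm10 is a B6 genome, reads of diverged CAST alleles could be lost. Sense counts were scaled to CPM on each library's gene sum. Log2 ratios used a pseudocount of 0.5 counts. Intervals are exact (scipy 1.17.1), and edgeR 4.0.16 and DESeq2 1.42.0 gave alternative scalings and a test with the spread between libraries. Mature sequences came from RefSeq (GRCm38.p6).

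The members, lists and tests were chosen with earlier results of these data known. The text names all 6 members, the genes of 2 lists (lymphoid and myeloid; synapse-linked), cell type markers, the gene nearest in level to each member, any gene sharing a 5p seed, and the pairs next to a miR-181 pair in fold. The listed marker Mir142hg was not matched by name. Of the synapse-linked list and the cell type markers, only the members a sentence turns on are named.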

Additional observations from a re-analysis of the deposited data

How the results depend on the processing

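The family's share of 0.465% became 0.508% with the unstranded column, where some other genes lose reads and the total is lower, and 0.207% when multimapping reads were added to the total. With 1 library left out, the fold of Mir181a-1 over Mir181a-2 ranged from 21 to 59.3, of Mir181b-2 over Mir181b-1 from 70.5 to 152, of Mir181a-1 over Mir181b-1 from 49.7 to 152, of Mir181b-2 over Mir181a-2 from 21.03 to 84.3 and of Mir181c over Mir181d from 1.23 to 1.33. Log2 ratios that changed sign were those of Mir181a-1 (0.022) and Mir181c (0.070) with DESeq2 size factors, and of Mir181d with TMM factors (0.12), DESeq2 size factors (0.19) and the unstranded column (0.016); the main ratios of all 3 were under 2-fold. The count of members called fell from 2 to 1 with a minimum of 10 CPM, which leaves Mir181b-1 untested, and to 0 with edgeR's exactTest. Over all genes the 87 calls became 53 with that minimum (39 of them lower in replicate 2), since fewer genes were tested, and 3 with exactTest (1 higher and 2 lower). The other alternatives kept the count of members called at 2. Depth limits Mir181b-1 most, which had 9 counts in replicate 1. No paired analysis was possible because the series has 1 group.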
